A study of Homo sapiens with 3 samples.

Results

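The genes that encode the core histones and the linker histones were followed in H2373 cells given a Hoechst dye. They were taken as every gene whose symbol in the array annotation is that of an H1, H2A, H2B, H3 or H4 gene or of a named variant, and 75 of the 18851 genes with a probe met this rule. Of these, 64 carry the cluster names H1-1 to H1-6, H2AC, H2BC, H3C and H4C. They were classed as replication-dependent genes by symbol alone, and their expression over the cell cycle was not examined. The other 11 were variant genes, which lie outside the clusters. H2373 is a cell line derived from malignant pleural mesothelioma. The cells were left untreated, or were treated with 36 µM H258 (Hoechst 33258) or with 36 µM H342 (Hoechst 33342) for 3 h. Both dyes bind the minor groove of DNA at runs of A and T, and they differ in the terminal phenyl ring, which carries a hydroxyl group in H258 and an ethoxy group in H342. Total RNA of each condition was amplified, labelled with biotin and hybridized to 1 Illumina BeadChip array. The culture time of the untreated cells and any vehicle they received are not given in the sources used here.

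Histones H2A, H2B, H3 and H4 form the protein core around which nucleosomal DNA is wound, and linker histone H1 binds where the DNA enters and leaves that core. The replication-dependent genes are transcribed mainly in S phase, lack introns, and give mRNAs that end in a conserved stem-loop in place of a poly(A) tail. Variant genes such as those of H3.3 and H2A.Z are transcribed throughout the cell cycle and give ordinary polyadenylated mRNAs. The amplification used here starts from poly(A) tails, so for replication-dependent genes the arrays see mainly those transcripts that carry one, and a change in their amount cannot be told apart from a change in the share that is polyadenylated. In RNA from a whole culture, fewer cells of a kind and less RNA per cell cannot be told apart either. Histone genes within a family are also close in sequence, and duplicated copies such as H2AC18 and H2AC19 or H4C14 and H4C15 may share a probe's signal, so each value below belongs to a probe assigned to the named gene.

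The cluster genes share promoter features that their symbols do not hold, and these are shown first because both dyes bind A/T-rich DNA. RefSeq promoters (GRCh38.p14), each of 300 bases from 250 before to 50 after the start of the gene, were matched by gene ID for 70 of the 75 genes. The promoter set had no entry for H2AC12, H3C11, H3C12, H4C1 and H4C3. H4C3, the gene called lower under H342 below, is therefore absent from every promoter count given here. The 150 bases before the start are printed for 3 H4 genes that were detected, for the bright H2B gene and for a variant gene, with every match to 1 of 5 searched motifs in capitals. Both strands were searched for the TATA box as TATAAA, for the box named after its letters CCAAT, for the octamer of H2A and H2B promoters as ATTTGCAT, for the H1 box as AAACACA, and for the core of site II of H4 promoters as GGTCCG. None of these 5 motifs contains another of them.
H4C12 at chr6:27831561-27831710, minus strand: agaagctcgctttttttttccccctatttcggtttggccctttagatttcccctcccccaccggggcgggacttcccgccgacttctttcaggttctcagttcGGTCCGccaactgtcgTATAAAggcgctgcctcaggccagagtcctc
H4C14 at chr1:149832507-149832656, plus strand: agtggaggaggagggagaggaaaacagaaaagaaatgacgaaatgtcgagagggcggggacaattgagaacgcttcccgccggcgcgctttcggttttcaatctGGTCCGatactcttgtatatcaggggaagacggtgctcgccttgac
H4C8 at chr6:26285535-26285684, minus strand: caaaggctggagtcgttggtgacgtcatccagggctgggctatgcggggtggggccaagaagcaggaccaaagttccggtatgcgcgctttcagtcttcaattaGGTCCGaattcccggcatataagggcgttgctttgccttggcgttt
H2BC12 at chr6:27146859-27147008, minus strand: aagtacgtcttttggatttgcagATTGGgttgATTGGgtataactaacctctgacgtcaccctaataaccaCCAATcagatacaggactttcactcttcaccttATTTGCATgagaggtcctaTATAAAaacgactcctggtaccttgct
H3-3B at chr17:75779780-75779929, minus strand: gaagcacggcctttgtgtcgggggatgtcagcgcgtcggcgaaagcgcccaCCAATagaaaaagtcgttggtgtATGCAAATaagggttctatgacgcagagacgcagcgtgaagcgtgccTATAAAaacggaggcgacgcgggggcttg

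The H4 core GGTCCG, to which the histone H4 transcription factor HINFP binds, started 47 bases before the start of H4C12 and 46 bases before the starts of H4C14 and H4C8. It was found in 11 of 12 H4 promoters (91.7%), against 11.2% of the 27305 promoters in the table. The octamer, a POU-domain factor site, was found in 14 of 18 H2B promoters (77.8%) and 10 of 14 H2A promoters (71.4%), against 1.80% of all. The H1 box was found in all 6 promoters of replication-dependent H1 genes, against 5.76% of all. The octamer was found in both H2A and H2B promoters, but windows of neighbouring H2A and H2B genes can hold the same bases. Matches of H2AC6 and its neighbour H2BC4 fell at the same spacing on opposite strands, and their octamer and TATAAA were counted for both. Of the H3 promoters, 9 of 9 had CCAAT, as did all those of H1, H2A and H2B. GGTCCG, the octamer and the H1 box were each found in 1 of 9 H3 promoters. The octamer was that of H3C4, whose window had the same matches, A+T content and A/T runs as that of H2AC7. The H3 counts may therefore include an H2A promoter. TATAAA was found in 39 of 59 replication-dependent promoters (66.1%) and 4 of 11 variant promoters (36.4%), against 11.95% of all. The median A+T content was 57.0% in replication-dependent promoters, 39.3% in variant promoters and 41.7% in all. Runs of at least 5 A or T bases numbered a median of 8 in replication-dependent promoters, 1 in variant promoters and 2 in all. A match is a description of these letters and not a site of binding. Whether motifs or A+T content bear on the differences between the arrays was not tested.

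The array software gave each probe a detection p against negative control beads, and a p under 0.05 counted as detected. Detected probes numbered 15115 to 16169 on the 3 arrays, and median signals lay between 130.0 and 133. Of the mesothelial markers listed, 8 of 11 were detected on at least 1 array, and UPK3B, KRT5 and PDPN were not. KRT19 was detected in untreated cells alone, and THBD under H342 alone, at a signal of 157. Of 9 markers of leukocytes, endothelium and lung epithelium, CD14 and PECAM1 were detected on all 3 arrays, at signals between 187 and 264, and the other 7 on none. With 1 array per condition there was no replicate check, and no error or p-value can be given for any gene. A comparison took in each gene with a detected signal on either of its 2 arrays, and a gene was called higher or lower at 2-fold on background-corrected, normalized values, that is by size alone.

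Of the 75 histone genes, 44 were detected on at least 1 array and 34 on all 3. Among all 18851 genes, 10779 were detected on at least 1 array, a share close to that of the histone genes. The other 31 had signals between 99.6 and 158, at the level of the lowest detected signals (156 to 160.0). Replication-dependent genes were detected in 35 of 64 cases and variant genes in 9 of 11. The 2 variant genes that were not detected were H1-7 and H1-8, the linker histones of spermatids and oocytes. Among the 6 replication-dependent H1 genes only H1-2 was detected. The H3 family was detected in 9 of 11 cases, H2B in 11 of 18, H2A in 7 of 15 and H4 in 7 of 14.

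**Figure D1:**
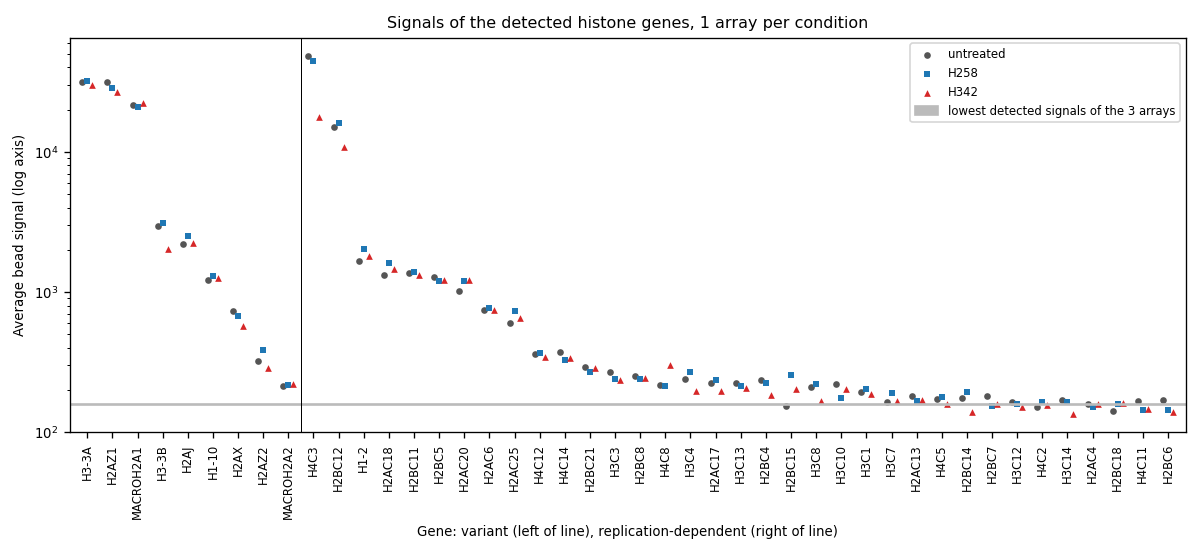
Signals of the 44 detected histone genes as deposited (vertical log axis, average bead signal) on the untreated, H258 and H342 arrays, 1 each, with variant genes to the left of the line and replication-dependent genes to the right. Symbols of a gene nearly coincide for most genes, while the H342 symbol of H4C3 (17792) lies apart from the untreated (48638) and H258 (44373) symbols. Signals of different genes come from different probes and are not compared.

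Against untreated cells, 1 of 43 tested histone genes was higher by 2-fold under H258 and 0 were lower. Over all 10550 genes tested, 0.768% were higher and 3.35% lower. Under H342, 1 of 44 histone genes was higher and 1 was lower, where 1.25% of all 10581 genes were higher and 3.61% lower. The gene that was higher was H2BC15 with either dye, and the gene that was lower under H342 was H4C3. Counts of 0 or 1 are too small to set histone genes apart from these shares. The median log2 difference of the histone genes was 0.05 under H258 and -0.03 under H342, beside 0.06 and 0.03 over all genes tested. Of the histone genes, 40 of 43 lay within 0.5 log2 of 0 under H258 and 37 of 44 under H342, beside 7891 of 10550 and 8067 of 10581 over all genes. Both comparisons share the same untreated array.

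H4C3 encodes the core histone H4, the same protein that nearly all H4 genes encode. Its single probe gave a signal of 48638 in untreated cells, 44373 in H258-treated cells and 17792 in H342-treated cells. The untreated and H258 arrays were both high, and the H342 array alone was low. The log2 difference from untreated cells was -0.18 under H258 and -1.39 under H342, which is 2.61-fold lower under H342. Set against each other at the same dose and time, H342 was 2.30-fold lower than H258, a log2 difference of -1.20.

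The size of the difference at H4C3 was unusual for a probe this bright. Of the 443 genes with a mean signal of at least 10000, the central 95% lay between -0.42 and 0.43 under H342. By 2-fold, 2 of the 443 were lower, H4C3 and ID3, and 1 was higher, and the other bright histone genes lay between -0.38 and 0.10. Under H258 none of the 443 genes was lower or higher by 2-fold. Among genes of any signal, H4C3 ranked 166 from the lowest of 10581 under H342. Its background is a small part of so bright a signal: the difference under H342 was -1.38 with no background correction and -1.35 in the authors' normalized table.

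**Figure D2:**
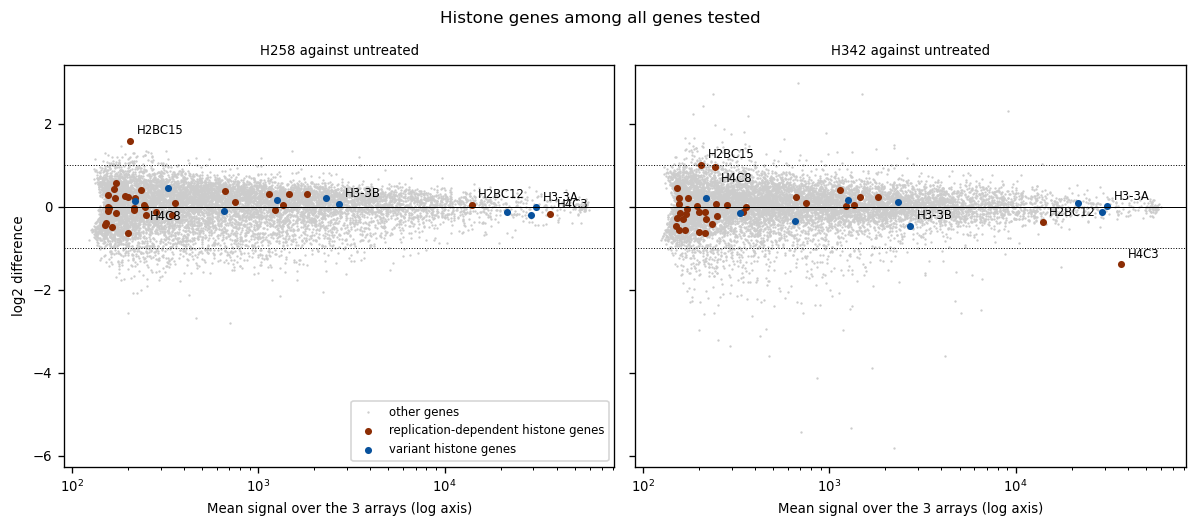
Difference from untreated cells (vertical axis, log2) against mean signal over the 3 arrays (horizontal log axis) for every gene tested, under H258 (left) and H342 (right), 1 point per gene, with replication-dependent histone genes in brown, variant histone genes in blue and 2-fold marked by dotted lines. Differences spread most at low signals, where H2BC15 lies, and H4C3 lies apart from the other bright genes under H342 (-1.39) and among them under H258 (-0.18).

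The other H4 genes did not share the value of H4C3. With the arrays in the order untreated, H258 and H342, H4C12 read 363, 365 and 344, and H4C14 read 375, 329 and 336. The 3 arrays were close to each other for both genes, whose differences under H342 were -0.01 and -0.13. H4C8 was the H4 gene furthest above 0 under H342. Its signals were 216, 213 and 300.2, so that only the H342 array was high, and the difference of 0.96 under H342 stayed just under 2-fold. Without background correction that difference was 0.54, and a second probe of H4C8, not detected on any array, gave 0.14. H4C5, H4C2 and H4C11 lay near the lowest detected signals. H4C5 differed by -0.18 under H342, and H4C2, not detected in untreated cells, was at least 1.10-fold higher. H4C11 was detected in untreated cells alone and was at least 1.06-fold lower. The H4 genes other than H4C3 and the neighbours of H4C3 are named as its family and cluster, with their values known. The other 7 H4 genes were not detected. H4C3 apart, the H4 family therefore held no gene past 2-fold in the comparisons with untreated cells.

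Of the genes that neighbour H4C3 in the cluster on chromosome 6, none shared its size of difference either. Under H342 the difference was 0.23 at H1-2 and -0.22 at H3C3 on one side, and -0.64 at H2BC4 and 0.10 at H2AC6 on the other. H1-6, which lies between H4C3 and H2BC4, was not detected. The cluster on chromosome 6 holds 53 of the replication-dependent genes and the clusters on chromosome 1 hold 10. Over those tested, the median difference under H342 was -0.12 on chromosome 6 (27 genes) and 0.14 on chromosome 1 (8 genes), and under H258 it was 0.05 (27 genes) and -0.00 (7 genes).

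H2BC12, which encodes a core histone H2B and whose octamer and TATA box are shown above, read 15063 without dye, 16030 with H258 and 10792 with H342. As for H4C3, the H342 array was the low one, but the difference of -0.38 was far from 2-fold. A second probe of H2BC12 read 2474, 2420 and 2349, with a difference of -0.00 under H342. The probes of this gene thus did not share the difference under H342. Their disagreement was within the range seen elsewhere: over 2211 genes with 2 probes detected on all arrays, probes of 1 gene disagreed by a median of 0.20 and by 0.58 at the 90th percentile.

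**Figure D3:**
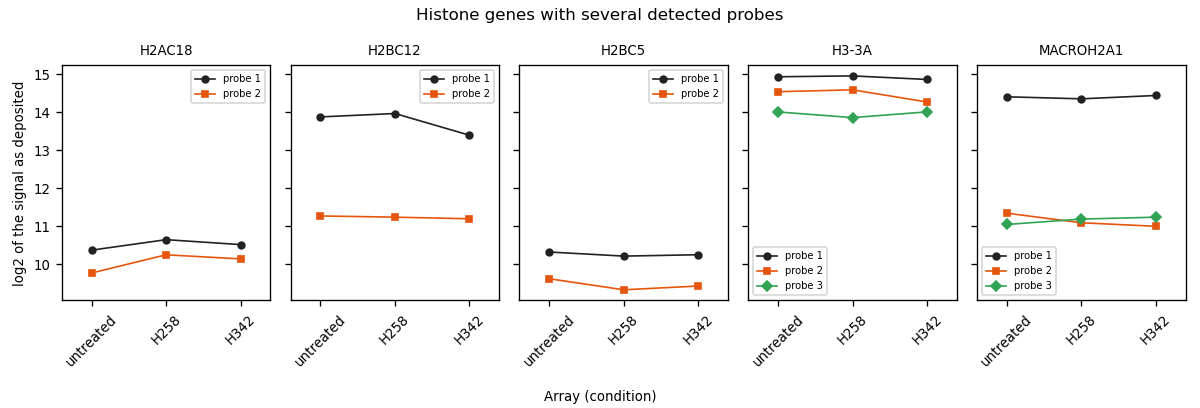
Signals on the log2 scale (vertical axis) on the untreated, H258 and H342 arrays for the 5 histone genes with more than 1 probe detected on all arrays, 1 line per probe. The brighter probe of H2BC12 is lower under H342 (10792 against 15063 in untreated cells) while the other is level (2349 against 2474), and the probes of H2AC18 follow the same course.

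Of the other H2B genes, H2BC11 read 1378, 1387 and 1333 and H2BC5 read 1282, 1189 and 1220. Neither brightest probe differed by more than 0.10 in any comparison, and a second probe of H2BC5 gave -0.28 under H258 and -0.11 under H342. H2BC15 was called higher with both dyes, but from the level of background. It read 155 in untreated cells, where it was not detected, 255 under H258 and 205 under H342. Set against the lowest detected signal of the untreated array, H2BC15 was at least 2.99-fold higher under H258 and at least 2.004-fold higher under H342. These folds depend on the background correction: without it the differences were 0.75 and 0.45, both short of 2-fold.

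Of the 7 detected H2A genes of the clusters, 5 lay above 0 and 2 below with either dye, and none was called. Genes below 0 among all those tested numbered 4698 of 10550 under H258 and 4950 of 10581 under H342. In the same order, H2AC18 read 1326, 1605 and 1468, and H2AC20 read 1020, 1196 and 1226. The untreated array was the lowest of the 3 for both, as it was for H2AC25 (605, 729.7 and 649.7), a gene chosen after its values were seen. The differences under H258 were 0.32, 0.31 and 0.38, and under H342 they were 0.25, 0.41 and 0.23, none near 2-fold. All 3 of these genes lie on chromosome 1. A second probe of H2AC18 gave 0.59 and 0.53. H2AC6, on chromosome 6, read 743, 765 and 742 and was level. The values below 0 were those of H2AC13 (-0.15) and H2AC4 (-0.11) under H258 and of H2AC17 (-0.28) and H2AC13 (-0.05) under H342, named because they complete the family. Over the 7 H2A genes tested the median was 0.22 under H258 and 0.10 under H342.

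H3 genes of the clusters were all dim, with signals between 134 and 270.5 where the 9 tested ones were measured. Under H342, 7 of the 9 lay below 0 with a median of -0.15, and none reached 2-fold by its brightest probe. Over all genes tested, 4950 of 10581 lay below 0. The widest difference under H342 was -0.61 at H3C8, while H3C14, not detected under H342, was at least 1.09-fold lower. Under H258 the median was -0.00, with 5 of 9 genes below 0, beside 4698 of 10550 over all genes. The widest differences under H258 were -0.64 at H3C10 and 0.58 at H3C7. These H3 genes and H3C13 were chosen after their values were seen. A second probe of H3C13 was detected only under H342, at 205 against 134 in untreated cells, a log2 difference of 1.38. The brighter one read 225, 215 and 207, with a difference of -0.11 under H342. The linker gene H1-2 read 1654, 2022 and 1816, differences of 0.31 under H258 and 0.23 under H342.

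**Figure D4:**
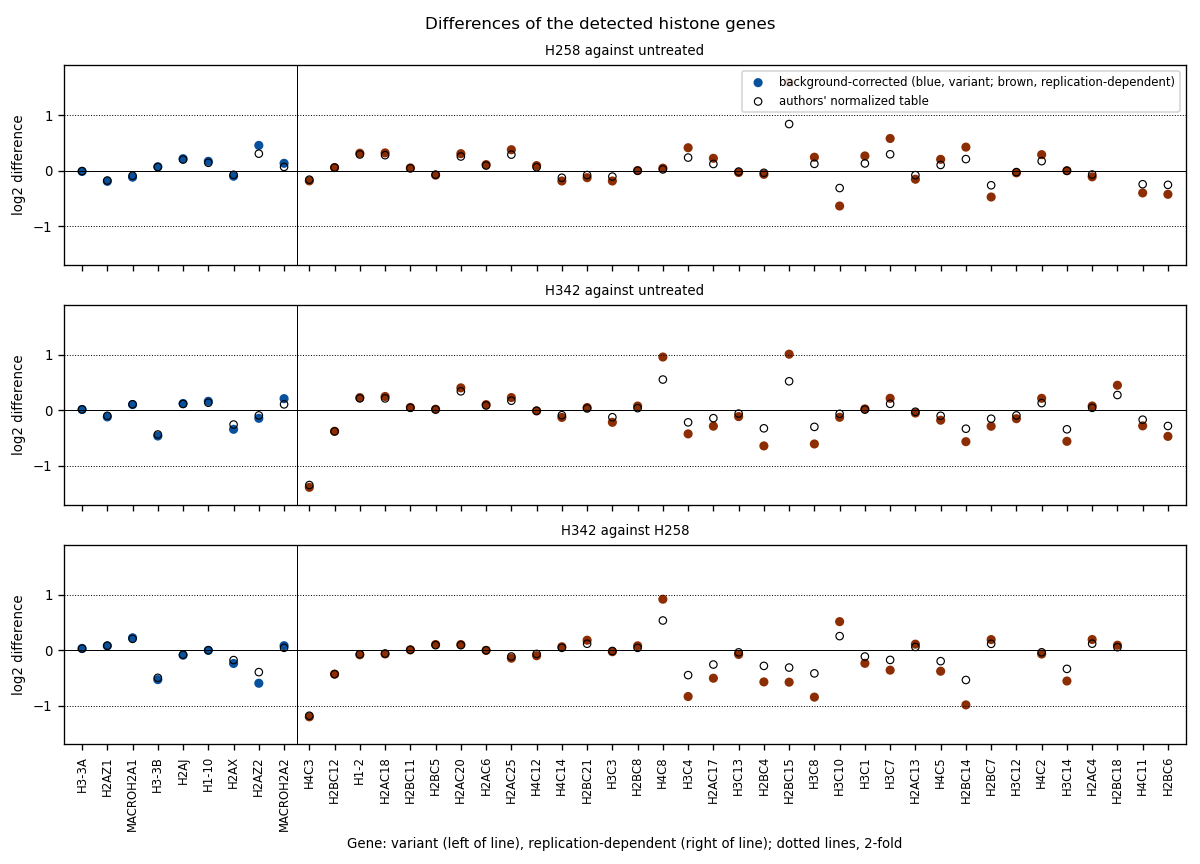
log2 difference (vertical axis) of each detected histone gene in the comparisons H258 against untreated, H342 against untreated and H342 against H258, 1 point per gene tested, with variant genes in blue, replication-dependent genes in brown, open circles for the authors' normalized table and dotted lines at 2-fold. H4C3 has the lowest value in both lower panels (-1.39 and -1.20), and filled and open circles part at dim genes such as H2BC15.

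No variant gene reached 2-fold with either dye. H3-3A and H3-3B encode the same protein, H3.3, which is deposited outside replication. H3-3A read 31330, 31833 and 29829, and H3-3B read 2962, 3107 and 2042. The brightest probe of H3-3A was level on all arrays. H3-3B was lower on the H342 array alone, with differences of 0.07 under H258 and -0.46 under H342. Other probes of H3-3A gave -0.03 and -0.20 under H258, and -0.18 and 0.07 under H342, so they did not share a direction under H342. The genes of H2A.Z, a variant at promoters and enhancers, also differed from each other: H2AZ1 read 31422, 28608 and 26888 and was close to level, and H2AZ2 read 321, 384 and 286. H2AZ2 was highest under H258, with differences of 0.46 under H258 and -0.14 under H342.

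H2AX, whose product is phosphorylated around DNA double-strand breaks, read 733, 669.8 and 570.4. The differences were -0.10 under H258 and -0.34 under H342. H2AJ, an H2A variant, read 2197, 2526 and 2253, with differences of 0.22 and 0.12. H1-10, a linker histone variant, read 1210, 1308 and 1258, with differences of 0.17 and 0.16, so both genes stayed near their untreated level. MACROH2A1, whose product carries a macro domain and is known from the inactive X chromosome, read 21742, 20950 and 22267. Its brightest probe differed by -0.12 and 0.10, and its other detected probes gave -0.27 and -0.28 in 1 case and 0.15 and 0.29 in the other, so its probes did not share a direction. MACROH2A2 read 215, 218 and 221, level on all arrays. Over the 9 variant genes the median difference was 0.07 under H258 and 0.02 under H342.

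When the dyes were compared with each other at 36 µM and 3 h, 41 histone genes were tested, 0 were higher and 1 was lower by 2-fold under H342. Over all 10296 genes tested, 3.74% were higher and 3.69% lower. The gene that was lower was H4C3. The median of the histone genes was -0.07, beside -0.01 over all genes. Of the 41, 25 lay below 0, as did 5313 of the 10296 genes tested. Of the variant genes, H2AZ2 (-0.60) and H3-3B (-0.53) were the lowest and MACROH2A1 (0.22) the highest. H4C8 differed by 0.92, and H2BC14, whose H342 signal of 140.1 was not detected, was at least 1.59-fold lower. Both were chosen after their values were seen. With 1 array per dye, no interval can be given for any of these differences, so they do not show that the dyes act alike on the other histone genes.

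Some cluster genes are known to give polyadenylated transcripts as well, and H1-2, H2AC6, H2BC4, H2BC5, H2BC12 and H2BC21 were listed as such. All 6 were detected and none was called, with medians of -0.01 under H258 and 0.04 under H342. Calls took in 0.768% of all genes as higher and 3.35% as lower under H258, and 1.25% and 3.61% under H342. Their widest differences were those of H1-2 (0.31), H2BC21 (-0.13) and H2AC6 (0.11) under H258, and of H2BC4 (-0.64), H2BC12 (-0.38) and H1-2 (0.23) under H342.

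Genes that drive histone transcription and form the ends of histone mRNAs numbered 28 in the list, 27 with a probe used here, of which 23 were detected. Under H258, 0 were higher and 1 was lower (0.768% and 3.35% over all genes), with a median of -0.12. Under H342, 0 were higher and 1 was lower (1.25% and 3.61% over all genes), with a median of -0.14. The gene that was lower under H342 was COIL, which encodes coilin, the scaffold of Cajal bodies. It read 1214 without dye, 948 with H258 and 390.0 with H342, lowest on the H342 array, a 3.71-fold difference (-1.89). The gene that was lower under H258 was NPAT, the cyclin E-CDK2 substrate that activates histone genes. NPAT read 226, 154 and 258.1 and was not detected under H258, where it was at least 2.04-fold lower than in untreated cells. That call was lost in the authors' normalized table, where the difference was -0.60.

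CCNE1, which encodes cyclin E1, moved apart between the dyes, at 602, 961 and 355. Its differences of 0.86 under H258 and -0.91 under H342 were each short of 2-fold, and the H342 array was below the H258 array by -1.77. TUT7, a uridylyltransferase that acts on histone mRNA, was not detected under H258 and was at least 1.12-fold lower there. CSTF1, a cleavage stimulation subunit, differed by -0.83 under H342. SLBP, which binds the histone stem-loop, read 2306, 1641 and 1572. It was lower on both dye arrays, by -0.52 and -0.51, and is named after its values were seen. In the direct comparison of the dyes 2 of the 23 genes were higher under H342 and 2 were lower. Over all genes tested, 3.74% were higher and 3.69% lower. The higher ones, NPAT (at least 2.86-fold) and TUT7 (at least 1.33-fold), were not detected under H258. Both fell short of 2-fold in the authors' normalized table, at 0.87 and 0.72. The lower ones were CCNE1 and COIL (-1.56).

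Histone chaperones and exchange factors were detected in 26 of 32 cases, and none was called against untreated cells. Beside this stand 0.768% of all genes higher and 3.35% lower under H258, and 1.25% and 3.61% under H342. Their median was 0.05 under H258 and -0.10 under H342. Under H258 the widest differences were those of the chaperone gene ASF1A (-0.92), the H2A.Z exchange gene SRCAP (0.69) and the HIRA partner gene CABIN1 (0.68). Under H342 they were those of HJURP, the chaperone of centromeric H3 (-0.77), the H3-H4 chaperone gene SPTY2D1 (-0.66) and SRCAP. SRCAP was not detected under H342, where it was at least 1.35-fold lower than in untreated cells. In the direct comparison 0 of the 26 were higher and 1 was lower under H342, beside 3.74% and 3.69% of all genes. The lower gene was SRCAP, not detected under H342 and at least 2.19-fold lower, with -0.69 in the authors' normalized table.

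Genes of DNA replication, during which cluster histone mRNA is made, numbered 26 in the list, 25 with a probe used here, of which 24 were detected. None was called with either dye. The shares over all genes were 0.768% higher and 3.35% lower under H258, and 1.25% and 3.61% under H342. A count of 0 in a list this short does not set it apart from them. Under H258 the median of the list was 0.02, and 11 of 24 lay below 0, beside 4698 of 10550 over all genes. Under H342 it was -0.26, and 21 of 24 lay below 0, beside the same 4950 of 10581 over all genes. The widest differences under H342 were those of the licensing factor CDC6 (-0.74), the uracil glycosylase UNG (-0.70) and the licensing inhibitor GMNN (-0.66). Under H258 they were those of GINS1, a helicase subunit not detected in untreated cells and at least 1.51-fold higher, PRIM1, a primase subunit (-0.61), and CLSPN, a checkpoint mediator (-0.56). These values stand beside the lower H4C3 signal under H342, and their part in it was not tested.

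**Figure D5:**
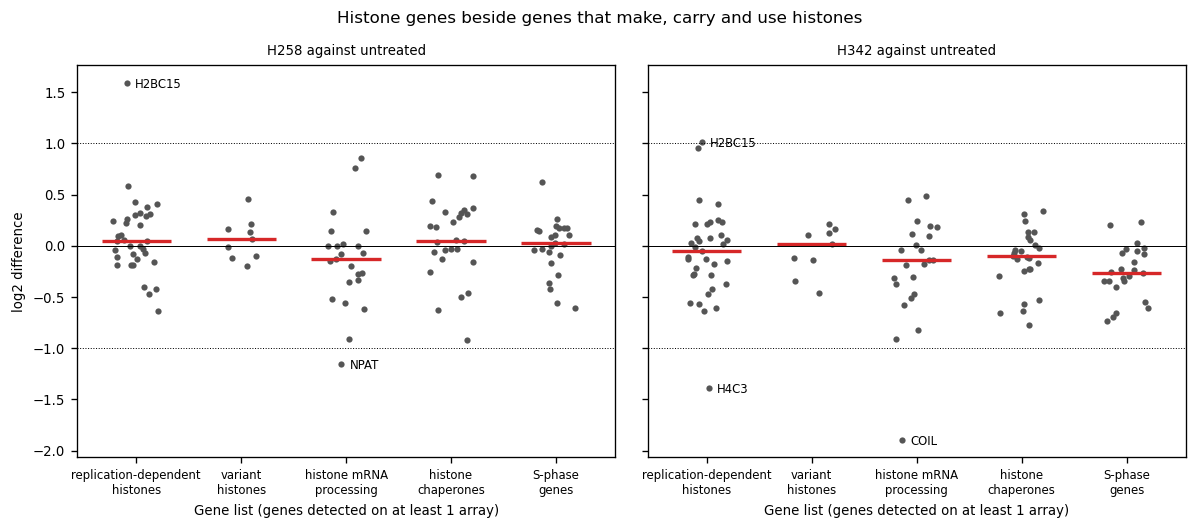
Difference from untreated cells (vertical axis, log2) under H258 (left) and H342 (right) for the tested genes of 5 lists, 1 point per gene, with sideways scatter for legibility, red bars at the list medians and dotted lines at 2-fold. H4C3 (-1.39) and COIL (-1.89) lie alone past 2-fold on the lower side under H342, and the S-phase genes have the lowest median there (-0.26).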

How the data were processed

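The deposited signal intensities are bead averages per probe without background subtraction, for which the labels name BeadStudio 3.1.3.0. Each comes with a deposited detection p-value against negative control beads. The authors deposited a further table of linear intensities that had been normalized between arrays (how is not given in the sources used here), and it served as an alternative. With limma 3.58.1 (R 4.3.3), neqc corrected the background (offset 16, negative controls inferred through the detection p), normalized by quantiles and took log2. Tables and plots were made with Python 3.11.15, numpy 2.4.6, pandas 2.3.3 and matplotlib 3.10.9.

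Of 48798 probes, 28098 had 1 gene symbol in the array annotation, 20692 had none and were not used, and 89 were assigned to histone genes, 1 of them to both H3C11 and H3C6. This shared probe was not detected and named no gene alone. A gene was represented by its probe with the highest mean. RefSeq held all 75 symbols under the same gene ID. The deposited signal file and the study's methods name different versions of the BeadChip, and the probe-to-gene annotation used is of the earlier one. Levels of different probes served only to choose a gene's probe and to sort genes by brightness. No coordinates of probes were used.

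Calls were made at 2-fold, with detection at p under 0.05 required on either array. Where 1 side was undetected, the fold given is a bound that puts this side at its array's lowest detected signal. Genes named are all called histone genes, all detected variants, the 8 brightest replication-dependent genes, and the 3 genes of each list with the widest difference under each dye, with others marked as chosen with their values known. Histone genes and lists were chosen with earlier results of these data known. The steps were tested on simulated data. Alternatives were offset 50, no background correction, median scaling, no normalization, cyclic loess, the deposited table, other detection filters, the bound for undetected sides, 1.5-fold and 3-fold, the mean of detected probes, and probes in place of genes.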

Additional observations from a re-analysis of the deposited data

How the results depend on the processing

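No paired analysis was possible because each condition has 1 array. The medians of the replication-dependent and the variant genes stayed within 0.2 log2 of their values under every alternative, with -0.12 to 0.05 for replication-dependent genes under H342. H4C3 lay between -1.46 and -1.35 under H342 and between -1.32 and -1.17 against H258, so only the 3-fold threshold ended its call, giving 0 lower in both comparisons. At 1.5-fold, 1 gene was lower under H258, 2 were higher and 3 lower under H342, and 1 was higher and 5 lower in the comparison of the dyes. The count of 1 higher under H342, which rests on H2BC15, became 0 with offset 50, no background correction, median scaling, no normalization, the deposited table, a detection p under 0.01, detection on both arrays, or 3-fold, and 2 with probes in place of genes. The count of 1 higher under H258 became 0 with no background correction, the deposited table, or detection on both arrays. With probes in place of genes, 1 was higher in the comparison of the dyes. Of the single-gene values, 15 moved by more than the limit set for them and 1317 did not, and none changed sign after a call. Signals near 160.0 cannot show how far a dim histone gene differed.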

Other observations

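Of 11 further histone variants listed outside the rule, 7 had a probe and 2 were detected. CENPA, the H3 variant of centromeres, read 3050.2 without dye, 2683 with H258 and 2566 with H342, close to level with differences of -0.19 and -0.16. H3-5, an H3 variant gene that arose as a copy of H3-3B, read 4468, 4192 and 3487, with differences of -0.12 and -0.27. As for H3-3B, the H342 array was the lowest. The probe of H3-5 may also take up signal from H3-3B, which was not checked, so the 2 genes are not independent readings.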
